A study of Mus musculus with 12 samples.

Results

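Small nucleolar RNA (snoRNA) host genes carry snoRNAs inside their transcription units. The 9 host genes described here are Snhg1, Snhg3, Snhg6, Snhg8, Snhg11, Snhg12, Snhg14, Snhg20 and Gas5, chosen by name out of 54532 genes, with 93 of the 137862 annotated transcripts. Snhg8 was put on the list because its level was higher in the knockout libraries, so its knockout differences are given as a description with no test. Total RNA of the hippocampus of mice aged 3 months was sequenced in 12 libraries: for each sex, 3 controls and 3 Atrx-cKO. The conditional knockout (cKO) removes Atrx, an X-linked gene for a chromatin remodeller, in neurons according to the series title, so other cells of the hippocampus would keep the gene. What drives the Cre is not given in the sources used here.

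Introns of a host transcript are released by splicing and trimmed around bound proteins to give the mature snoRNAs. Box C/D snoRNAs guide 2'-O-methylation and box H/ACA snoRNAs guide pseudouridylation, mostly of ribosomal RNA, while a few act in ribosomal RNA cleavage. In many hosts the spliced exons code for no protein, and several of these RNAs, Gas5 being the best known, are translated briefly and removed by nonsense-mediated decay. Many hosts begin with a pyrimidine run at the transcription start (a 5' TOP sequence), as ribosomal protein genes do. In neurons, Snhg14 is the long paternally expressed transcript that carries the Snord115 and Snord116 clusters and runs antisense to Ube3a.

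The start sites are shown because this run is the sequence feature that several hosts are known to share. The 40 bases run 5' to 3' on the gene's strand, from 15 bases before the RefSeq start (GRCm38.p6), and capitals mark a run of at least 5 C or T bases that begins within 5 bases of the start. The first 5 lines have such a run and the last has none.
Snhg8, chr3:123508312-123508351, minus: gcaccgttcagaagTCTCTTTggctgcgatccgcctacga
Gas5, second start, chr1:161035151-161035190, plus: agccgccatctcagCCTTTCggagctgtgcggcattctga
Snhg12, chr4:132308663-132308702, plus: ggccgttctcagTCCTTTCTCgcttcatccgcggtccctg
Snhg1, chr19:8723472-8723511, plus: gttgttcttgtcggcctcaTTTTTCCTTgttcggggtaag
Snhg3, chr4:132353662-132353701, minus: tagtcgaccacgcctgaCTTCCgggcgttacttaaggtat
Snhg11, chr2:158375698-158375737, plus: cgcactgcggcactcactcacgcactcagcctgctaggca
The 8 hosts matched in the RefSeq table have 9 starts, of which 5 (55.6%), each of another host, had the run, and the first Gas5 start, Snhg11, Snhg14 and Snhg20 did not. The same search, whose window was set after the sequences had been read, found the run at 22% of all 32851 starts. It found it at 3 of 12 starts (25%) of other noncoding hosts, 7 of 34 (20.6%) of protein-coding snoRNA hosts, and 7 of 17 (41.2%) of snoRNA particle proteins and assembly factors. For genes of nonsense-mediated decay and the exon junction it was 4 of 14 (28.6%). Snhg6 was not matched. The Snhg14 start searched (chr7:60450177) lies upstream of the gene span used for its levels, which ends at chr7:59975759.

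The deposited unit is FPKM, fragments mapped to a transcript, scaled to its length and to the size of the library. Mapped sequence ran from 1.16 to 8.64 Gb per library. Protein-coding olfactory and vomeronasal receptor genes, which the hippocampus hardly uses, carried a median level (the background) of up to 0.602 in 10 libraries, but of 1.97 in cKO female 2 and 2.25 in cKO female 3. These 2 libraries, also the shallowest, stand apart. Background-subtracted FPKM, used for the tests, is the level per length of the union of a gene's exons less this background, rescaled between libraries. Deposited Atrx in females was 55.6, 58.8 and 63.6 FPKM in controls, against 31.0, 36.1 and 38.2 in cKO. In males the control libraries had 46.9, 40.2 and 42.1 FPKM, against 34.2, 32.3 and 36.5 for cKO. No cKO library reached a control library of its sex (exact two-sided permutation test within sexes, p = 0.005, the smallest 400 arrangements allow; p = 0.1 in either sex alone, also the smallest).

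Summed over its transcripts, Snhg14 had the highest deposited level of the 9 hosts, with a mean of 109.5 FPKM over 12 libraries (70.7 to 159), but its transcripts lie along separate stretches of a very long gene. Gas5 followed at 97.4 FPKM (38.0 to 183), Snhg8 at 67.2 FPKM (38.0 to 112) and Snhg11 at 46.9 FPKM (23.2 to 86.2). The ranges of these neighbours overlapped. Snhg6, Snhg12, Snhg1 and Snhg3 had means of 13.0, 12.6, 11.3 and 7.89 FPKM, with overlapping ranges, and Snhg20 was lowest at 4.42 FPKM (2.56 to 6.18). The deposited order shifted between groups: Snhg8 was the fourth of the 9 hosts in control females and the first in cKO males. It also depends on the scale. As background-subtracted means over 12 libraries, Snhg8 had 35.3 FPKM, Snhg11 29.2, Gas5 18.7 and Snhg14 9.16.

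Snhg8, a short noncoding gene at chr3:123507552-123508404 on the minus strand, carries Snora24. Its deposited level in females was 41.7, 40.1 and 38.1 FPKM in controls, against 63.3, 38.0 and 39.5 FPKM in cKO. cKO female 1 lay above every control female, whereas cKO females 2 and 3 did not. In males the controls had 78.1, 78.3 and 75.9 FPKM and the cKO libraries 106, 95.5 and 112 FPKM, so the male groups did not overlap. After background subtraction, Snhg8 in females was 20.1, 18.8 and 19.9 FPKM in controls, against 31.0, 31.5 and 33.9 FPKM in cKO. In males the controls had 36.5, 40.1 and 37.1 FPKM, against 50.5, 48.0 and 56.6 for cKO. On this scale all cKO libraries lay above all controls of their sex.

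The group means of subtracted Snhg8 were 19.6 ± 0.71 FPKM (control) and 32.2 ± 1.54 (cKO) in females, and 37.9 ± 1.95 (control) and 51.7 ± 4.41 (cKO) in males (SD, n = 3 each). The fitted difference in log2(FPKM + 0.5) was 0.70 in females and 0.44 in males (SE 0.08). The female value rests on the subtraction and rescaling: it was 0.19 on deposited FPKM and -0.53 when the libraries were scaled with no subtraction. That last setting, meant by no subtraction throughout, scaled deposited FPKM over all genes detected in every library. It thus differs from the main one in its levels and scaling genes as well. Without cKO females 2 and 3 the female value was 0.65, from 1 remaining cKO library. The male value was 0.18 when scaled with no subtraction. Snhg8 was also higher in control males than in control females (log2 difference 0.93, limma adjusted p = 0.000327, higher in 3 of 3 control males). Its choice compared cKO with these same controls, so this test is not independent of the choice.

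**Figure D1:**
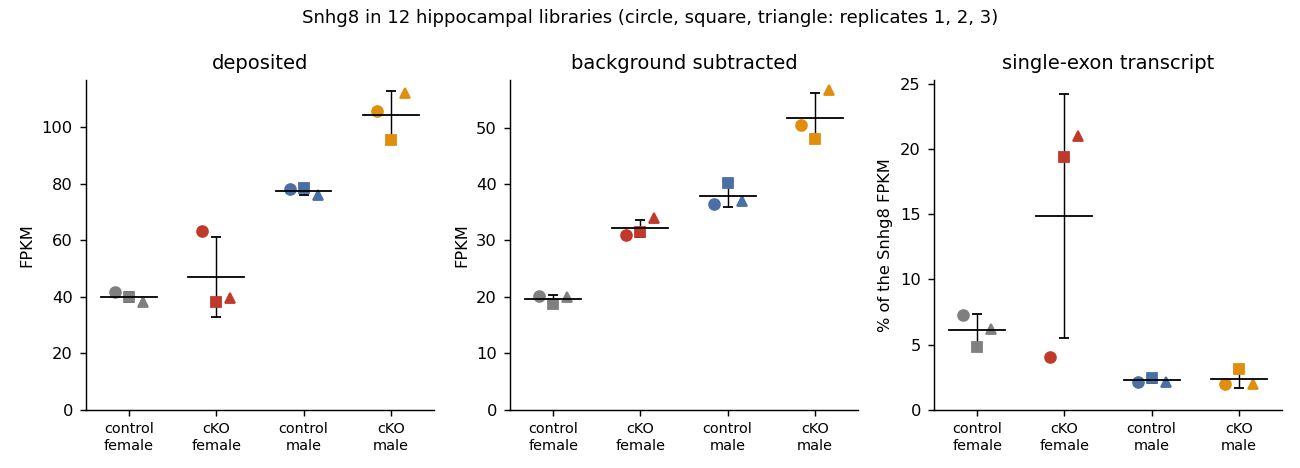
Snhg8 in each library (points, by replicate) with group mean (line) and SD (bar, n = 3): deposited FPKM, background-subtracted FPKM, and the share of the deposited Snhg8 FPKM in the single-exon transcript (%). The cKO females 2 and 3 sit at 38.0 and 39.5 deposited FPKM, among the controls, and at 31.5 and 33.9 after subtraction, above them.

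Of the 3 annotated Snhg8 transcripts, the spliced one with 3 exons (ENSMUST00000196466, 448 bases) held most of the signal. Its subtracted level in females was 32.7 ± 0.44 FPKM for controls and 45.8 ± 7.11 for cKO, where cKO females 1 to 3 had 53.6, 39.8 and 43.8. In control males it was 67.9 ± 3.52 FPKM and in cKO males 92.3 ± 9.02 (SD, n = 3 each). The single-exon transcript (ENSMUST00000198509, 776 bases) runs through both introns and the Snora24 sequence. It made up 7.25, 4.79 and 6.23% of the Snhg8 FPKM in control females, and 4.06, 19.4 and 21% in cKO females. In males its share was 1.95 to 3.13% in all 6 libraries. The 2 libraries with shares near 20% are those with the highest background, and the part of that background in the female difference was not tested.

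The levels of 6291 genes with a mean of at least 5 FPKM were compared with Snhg8 across the 12 libraries on the log2 scale. The 5 most similar were Bpgm (Pearson r = 0.966), Fnta (0.957), the processed pseudogene Rps3a2 (0.950), Rps9 (0.945) and Lsm6 (0.944). Bpgm makes 2,3-bisphosphoglycerate, Fnta is a farnesyltransferase subunit, Rps9 a ribosomal protein and Lsm6 a subunit of an RNA-binding ring. The 12 libraries share sex, genotype and depth differences, so these r values describe the libraries only. Over the same libraries, 4 other hosts had that mean: Snhg6 (r = 0.586), Gas5 (0.530), Snhg14 (-0.486) and Snhg11 (-0.554).

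None of the other 8 hosts passed limma's test (adjusted p under 0.05) between cKO and control. In females the smallest adjusted p was 0.114, against 0.0731% of 15055 genes called. At an unadjusted p under 0.05, 2 of the 8 passed in females, against 29.3% of all genes. In males 0 of the 8 passed by either measure (0.00664% of all genes called, 2.32% unadjusted), and every adjusted p was 1. For the mean of the sexes none passed (smallest adjusted p = 0.222, 0.0332% of all genes called), with 2 at an unadjusted p under 0.05 against 20.3% of genes. The male effect less the female effect passed for no host and no gene (0% called), with 1 host at an unadjusted p under 0.05 against 6.24% of genes. The median log2 difference of the 8 was -0.08 in females and -0.04 in males, beside 0.02 and 0.03 over all genes.

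**Figure D2:**
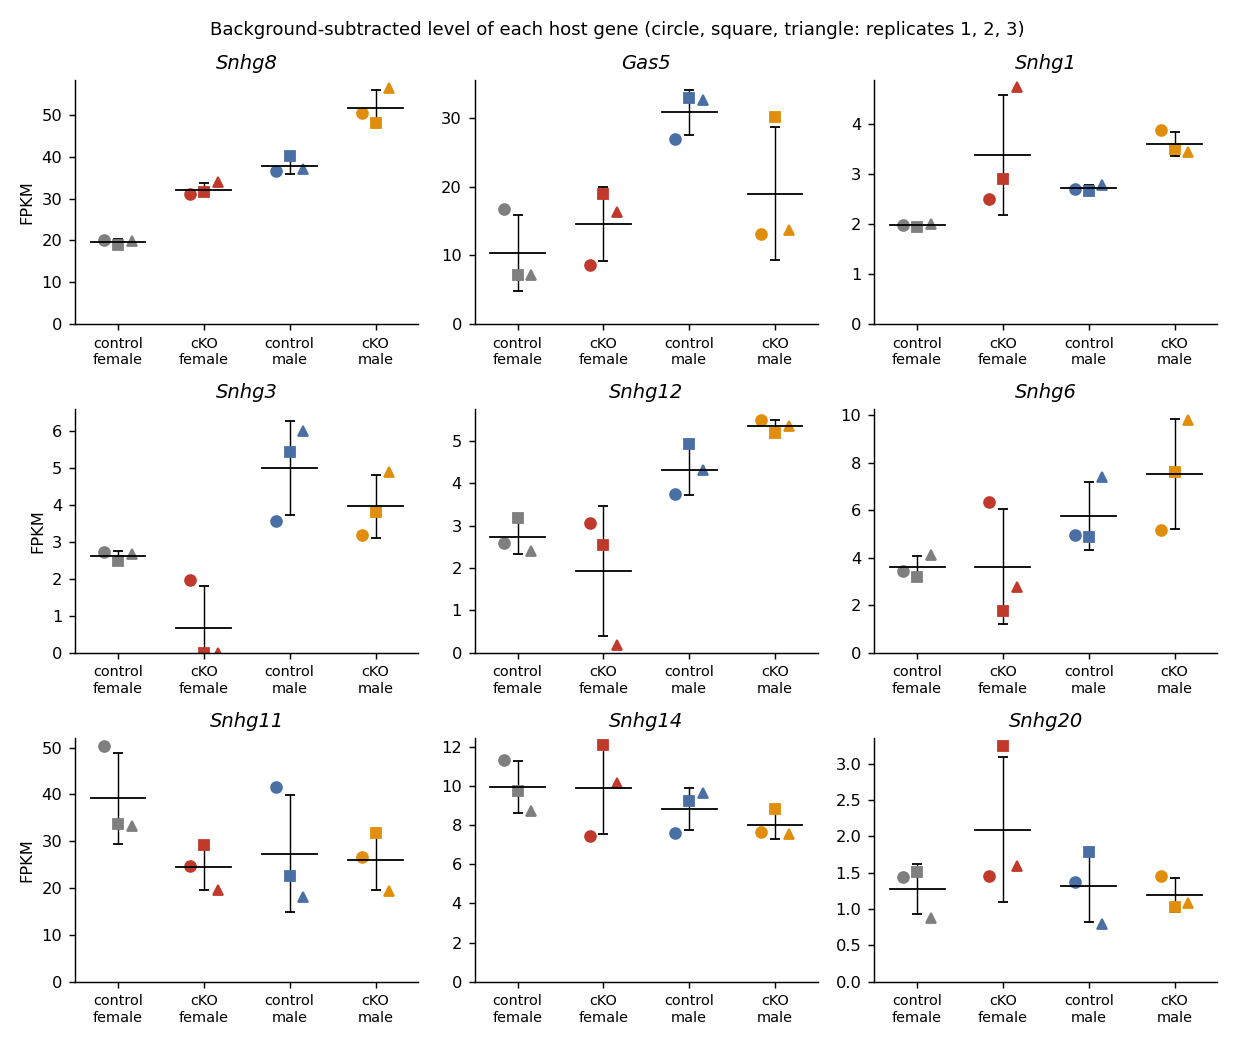
Background-subtracted FPKM of the 9 host genes in each library (points, by replicate), with group mean (line) and SD (bar, n = 3). In both sexes every cKO library lies above every control for Snhg8 and Snhg1, and Snhg3 is at 0 in cKO females 2 and 3. The background of these 2 libraries was 1.97 and 2.25 FPKM, so low levels such as that of Snhg1 are not well resolved there.

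Snhg1 carries several box C/D snoRNAs, Snord22 among them, in its introns. Its deposited level in females was 8.02, 8.87 and 9.39 FPKM in controls, against 9.78, 11.8 and 10.7 FPKM in cKO. In males the controls had 11.6, 11.1 and 12.0 FPKM, against 15.6, 12.2 and 14.5 for cKO. No cKO library overlapped the controls of its sex, and the same held after subtraction. On the subtracted scale 1.55% of all genes, and on the deposited scale 1.38%, were higher in this way in both sexes. Subtracted, the control females had 1.97, 1.94 and 1.99 FPKM and the cKO females 2.49, 2.89 and 4.74. The last 2 values are from cKO females 2 and 3, where the background was 1.97 and 2.25 FPKM. Levels of this size are not well resolved there, and the part of the background was not tested. The log2 difference was 0.61 in females (SE 0.18, limma adjusted p = 0.114) and 0.35 in males (adjusted p = 1). Without cKO female 1, it was 0.77 in females with an adjusted p of 0.00456, in a fit that called 38.6% of all genes, against 0.0731% with that library. It was -0.41 in females when libraries were scaled with no subtraction.

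Snhg3 hosts Snora73a and Snora73b, the U17 snoRNAs, which act in cleavage of the ribosomal RNA precursor. It went the other way in females: 7.13, 6.14 and 7.0 deposited FPKM in controls against 5.55, 3.43 and 3.76 in cKO. All 3 cKO females lay below the controls. After subtraction the controls had 2.72, 2.50 and 2.68 FPKM, cKO female 1 had 1.98, and cKO females 2 and 3 were at 0, where subtraction stops. The log2 difference of -1.88 (SE 0.51, adjusted p = 0.114) therefore depends on the constant of 0.5 added to each value. Without cKO female 1 it was -2.64 (adjusted p = 7.70e-05), in the same fit that called 38.6% of all genes and with both remaining cKO females at 0. In males the controls had 9.19, 11.8 and 14.3 deposited FPKM, against 8.14, 9.04 and 9.22 for cKO, with 1 control inside the cKO range (log2 difference -0.29, adjusted p = 1).

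Snhg12 holds Snora44 and Snora16a in its introns. Its subtracted level in control males was 3.75, 4.92 and 4.31 FPKM, against 5.50, 5.20 and 5.36 in cKO males. The male groups did not overlap on this scale, but did on the deposited scale, where a control at 17.7 FPKM lay above a cKO library at 16.9. The log2 difference in males was 0.28 (SE 0.48, adjusted p = 1). In females the controls had 2.60, 3.19 and 2.41 subtracted FPKM and the cKO libraries 3.06, 2.54 and 0.193. The low value is cKO female 3, and without it the log2 difference of -0.72 became 0.03.

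Snhg8 is left out of the counts by overlap, since its rise put it on the list. Of the other 8 hosts, 1 lay above the controls in all cKO females on the subtracted scale (Snhg1, against 10.2% of all genes). Snhg3 and Snhg11 lay below (7.5% of genes). In males 2 of the 8 lay above (Snhg1 and Snhg12, against 7.4% of genes) and 0 below (4.65% of genes). On deposited FPKM, Snhg1 was above in females (10.9% of genes) and in males (7.07%), and Snhg3 and Snhg11 were below in females (7.84%).

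Summed levels of some cell type markers stood apart between cKO and control libraries of a sex. The summed subtracted FPKM of 8 microglia markers was 56.3 to 61.9 in cKO females and 64.5 to 68.1 in control females, and that of 8 astrocyte markers 571 to 656 in cKO males and 658 to 755 in control males. Neither pair of groups overlapped, and these 2 sums are named for that, since the other sums overlapped. Of all single genes, 7.5% in females and 4.65% in males were lower in cKO without overlap. Singly, 6 of the 8 microglia markers in females and 8 of the 8 astrocyte markers in males were lower, with 0 called. The 8 interneuron markers summed to 383 and 339 in cKO females 2 and 3, against 194 in cKO female 1 and 180 to 216 in control females. Singly, 4 of them were higher and 4 lower in cKO females (median log2 difference -0.04), so the list did not rise as a whole. The 8 choroid plexus markers, which come from tissue beside the hippocampus, summed to 17.3, 5122 and 12.0 in control females and 27.7 to 41.7 in cKO females. In males they summed to 3619, 1556 and 1237 in controls, against 2303, 43.4 and 45.2 for cKO. The part of these cells in the host levels was not tested.

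**Figure D3:**
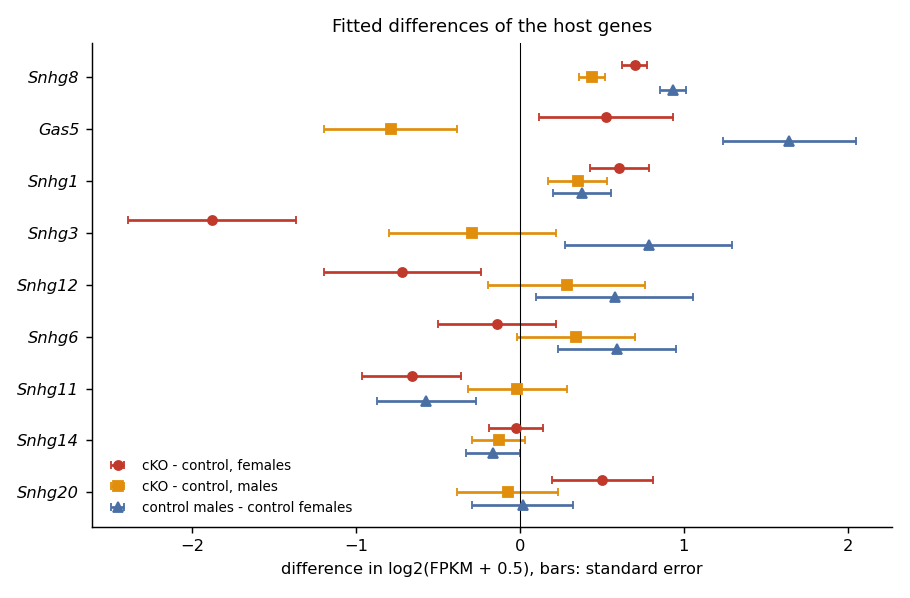
Fitted differences in log2(FPKM + 0.5) with standard errors for each host: cKO less control in females and in males, and control males less control females. Snhg8, shown without a test for cKO, has values of 0.70, 0.44 and 0.93, and Gas5 has values of 0.53, -0.79 and 1.64.

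Gas5, a host of box C/D snoRNAs whose spliced RNA also binds the glucocorticoid receptor, varied widely between libraries of 1 group. Its deposited level in females was 96.0, 38.0 and 38.3 FPKM in controls, against 43.0, 81.2 and 62.6 in cKO. In males the controls had 151, 178 and 183 FPKM and the cKO libraries 66.1, 163 and 68.7. The control males were all high, whereas 2 of 3 cKO males lay among the females and the third among the control males. The log2 difference was 0.53 in females (SE 0.41, adjusted p = 0.403) and -0.79 in males (adjusted p = 1). In females it was -0.51 when scaled with no subtraction and -0.14 without cKO females 2 and 3.

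Snhg6, Snhg11, Snhg14 and Snhg20 did not pass in either sex. Snhg6, host of Snord87, spread from 6.91 to 23.8 deposited FPKM, with overlapping groups within both sexes. Snhg11 is a neuronal transcript that the annotation classes as protein-coding. Its level in females was 86.2, 59.2 and 52.4 deposited FPKM in controls, against 42.0, 34.9 and 23.2 in cKO. These groups did not overlap, but the log2 difference of -0.66 (SE 0.30) had an adjusted p of 0.175. In control males Snhg11 ran from 29.5 to 71.1 FPKM and in cKO males from 31.0 to 52.0 FPKM. Snhg20 was 1.28 ± 0.35 subtracted FPKM (control) and 2.09 ± 0.99 (cKO) in females, and 1.32 ± 0.49 (control) and 1.19 ± 0.23 (cKO) in males (SD, n = 3 each).

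Snhg14 spans 667836 bases of chromosome 7 (chr7:59307924-59975759, minus strand) with 15 annotated transcripts, and its gene level moved little. Subtracted means were 9.93 ± 1.32 FPKM (control) and 9.89 ± 2.33 (cKO) in females, and 8.81 ± 1.08 (control) and 7.99 ± 0.70 (cKO) in males (SD, n = 3 each). Its transcripts did not all follow this mean. The 12-exon transcript at the 5' end of the annotated gene (ENSMUST00000189581) in females was 21.3, 19.97 and 17.0 deposited FPKM in controls, against 15.9, 8.51 and 8.87 in cKO. An internal 3-exon transcript (ENSMUST00000187666) in females was 7.43, 5.45 and 10.4 FPKM in controls, against 8.23, 33.8 and 27.4 in cKO. In males it ran from 1.05 to 8.98 FPKM, the highest being cKO male 2. These 2 transcripts were singled out after their values were seen. The low values of the first and the high values of the second fall in cKO females 2 and 3, the libraries of highest background, whose part was not tested.

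**Figure D4:**
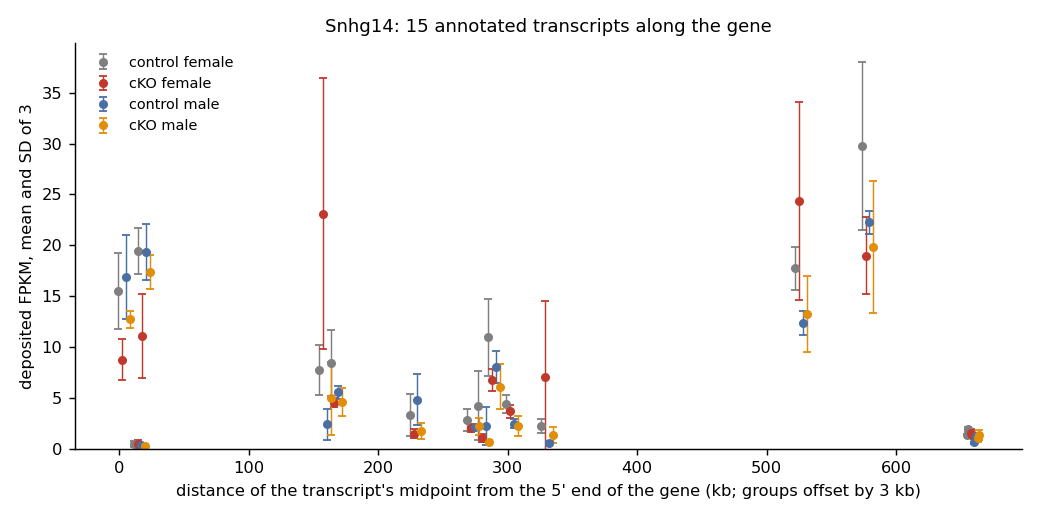
Deposited FPKM (mean and SD of 3 libraries per group) of the 15 Snhg14 transcripts, placed by the distance of their midpoint from the 5' end of the annotated gene (kb). The cKO female mean reaches 23.1 at the internal 3-exon transcript, against 7.76 in control females.

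Between control males and control females, Snhg8 and Gas5 passed limma's test, both higher in males. Snhg8 is left out of the counts here, since the same controls entered its choice. Of the other 8 hosts 1 was called, against 11.7% of all 15055 genes in either direction and 6.56% higher. Gas5 had a log2 difference of 1.64 (SE 0.41, adjusted p = 0.0274), with all 3 control males above all control females. This call held in 17 of 23 alternatives (adjusted p 0.0148 to 0.0965). It was lost without control female 2 (0.0901), control female 3 (0.0910), control male 1 (0.0543), control male 2 (0.0894) or control male 3 (0.0965), and with no filter on low genes (0.0827). The Snhg8 call held in 22 of 23 (0.000289 to 0.0794) and was lost with no subtraction.

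The control groups did not overlap for 5 of the 8 hosts other than Snhg8, all higher in males, against 21% of all genes. These were Snhg1, Snhg3, Snhg6, Snhg12 and Gas5, and the control groups did not overlap for Snhg8 either. Snhg3, Snhg6, Snhg12 and Snhg1 had log2 differences of 0.79, 0.59, 0.58 and 0.38, none past the threshold. The median of the 8 was 0.48, against -0.07 over all genes. Snhg1 and Snhg12 passed without cKO female 3 (adjusted p = 0.0334 and 0.0199), and Snhg3 passed on deposited FPKM (0.0476) and without cKO female 1 (0.0231). Those 3 fits called 13.5, 3.31 and 18.6% of all genes. Cell type markers moved with the same contrast. The summed subtracted FPKM of 12 hippocampal neuron markers was 644 to 697 in the 6 female libraries and 475 to 537 in the 6 male libraries. That of 8 astrocyte markers was 434 to 483 in females and 571 to 755 in males, and that of 8 oligodendrocyte markers 263 to 392.5 and 422 to 802. The microglia markers summed to 56.3 to 68.1 in females and 80.5 to 93.6 in males. Choroid plexus markers were high in all control males but in only 1 control female, as given above, and interneuron markers were 180 to 216 in control females and 135 to 181 in control males. The 8 endothelial and mural markers summed to 44.8 to 56.2 over the 12 libraries. No marker of these lists was under 1 FPKM in all libraries. In bulk tissue, fewer cells of a type and less RNA per cell cannot be told apart, and the part of cell composition in the sex difference was not tested. The background differed between the control groups too, without overlap. It was 0.0863 to 0.602 in control females and 0.00664 to 0.0276 in control males, and its part in the sex difference was not tested.

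The annotation places 238 snoRNA entries inside the 9 hosts on the same strand, 208 of them in Snhg14. Of these, 100 reached 1 FPKM in at least 3 libraries and 73 passed the filter for the test. Those the next results turn on are printed from GENCODE M21 transcripts, with capitals at the C box (TGATGA) and D box (CTGA), or at the ACA box that lies 3 bases before the 3' end. Strand use is not known and these entries are short, so reads of unspliced host RNA and of the mature snoRNA cannot be told apart.
Snora24 in Snhg8, chr3:123507937-123508066, minus: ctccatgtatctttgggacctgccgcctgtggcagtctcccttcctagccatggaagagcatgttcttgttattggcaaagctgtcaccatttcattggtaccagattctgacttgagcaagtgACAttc
Snora73a in Snhg3, chr4:132352775-132352979, minus: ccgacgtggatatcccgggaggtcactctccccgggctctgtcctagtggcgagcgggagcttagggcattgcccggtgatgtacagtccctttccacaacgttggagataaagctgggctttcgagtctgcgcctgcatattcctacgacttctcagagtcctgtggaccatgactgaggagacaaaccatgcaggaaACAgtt
Snora73b in Snhg3, chr4:132352322-132352526, minus: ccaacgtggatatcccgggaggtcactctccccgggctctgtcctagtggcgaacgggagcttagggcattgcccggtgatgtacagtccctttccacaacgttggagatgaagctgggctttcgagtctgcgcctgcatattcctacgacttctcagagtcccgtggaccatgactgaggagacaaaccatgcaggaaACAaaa
Gm22357 in Gas5, chr1:161036057-161036139, plus: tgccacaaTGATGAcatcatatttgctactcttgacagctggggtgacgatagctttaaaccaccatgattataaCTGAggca
Both U17 copies are 205 bases long and differ at 7 of them (96.6% identity), so reads may be shared between them.

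Snora24 is the H/ACA snoRNA of Snhg8. Its deposited level was 20.5, 43.1 and 85.7 FPKM in control females, against 51.7, 43.2 and 38.6 in cKO females. In males the controls had 88.7, 160 and 131 FPKM, against 183, 121 and 218 for cKO. The cKO and control libraries overlapped in both sexes. Because it lies in Snhg8, whose single-exon transcript covers it, its difference is not independent of the host.

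The U17 entries were low in females. Snora73b in females was 3.52, 10.5 and 2.55 deposited FPKM in controls, against 0, 0.431 and 0.420 in cKO. Taken alone, it lay lower in cKO with no overlap, as 7.84% of all genes did on deposited FPKM. It was the only one of the 73 entries called in a cKO comparison (females, log2 difference -3.09, limma adjusted p = 0.0319, against 0.0731% of all genes called). With the cKO females at or near 0, the size depends on the constant added: it was -5.25 with 0.1 and -1.57 with 2 (adjusted p = 0.106). The call held in 9 of 24 alternatives (adjusted p 0.00152 to 0.415). It was lost, among single libraries, without control female 1 (0.110), cKO female 2 (0.120) or 3 (0.123), control male 1, 2 or 3 (0.0820, 0.0788 and 0.0744), or cKO male 1 or 3 (0.0708 each). Snora73a in females was 1.53, 2.35 and 2.96 FPKM in controls, against 11.4, 0.304 and 0.308 in cKO. cKO female 1 was the highest female for Snora73a and listed at 0 for Snora73b. Its 11.4 FPKM for Snora73a lay above the Snora73b level of every control female. Since the 2 copies may share reads, the values of Snora73b alone do not show lower U17 RNA as a whole. How reads were split between the copies was not tested. In control males Snora73b was 16.5, 14.8 and 16.6 FPKM, against 30.2, 12.9 and 22.4 in cKO males.

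Over the 73 entries, 1 was called in females, and 0 in males, for the mean of the sexes and for the male less the female effect. Of all genes, 0.0731, 0.00664, 0.0332 and 0% were called in these comparisons. At an unadjusted p under 0.05 these counts were 12, 5, 19 and 6 of 73, against 29.3, 2.32, 20.3 and 6.24% of all genes. Without cKO female 1, the called counts for females, the mean and the difference were 14, 9 and 8, in fits that called 38.6, 29.6 and 19.3% of all genes. The median log2 difference was -0.28 in females and 0.44 in males, against 0.02 and 0.03 over all genes. The largest group, in Snhg14, had 80 entries at 1 FPKM in 3 libraries but only 57 distinct sequences, with up to 7 identical copies, so single copies are not described. In 72 of these 80 the C and D boxes were found. Of the 73 tested entries, 53 lie in Snhg14. Its copies may share reads and repeat 1 signal, so counts and medians over the 73 are not of independent genes.

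Between control males and control females, 4 of the 73 entries were called, against 11.7% of all genes in either direction and 6.56% higher. All 4 were higher in males: Gm22357 (log2 difference 1.48, limma adjusted p = 0.0184), Snora73b (1.82, 0.0230), Snora44 (1.04, 0.0253) and Snora16a (1.06, 0.0456). These calls held in 18, 15, 17 and 9 of 23 alternatives. Each was lost without control female 1 (adjusted p = 0.0729, 0.0867, 0.0814 and 0.161) and without control male 2 (0.0743, 0.0699, 0.0894 and 0.141). Other single libraries ended calls too: Gm22357 without control female 2 (0.0517), Snora73b without control female 3 (0.0711) or control male 1 or 3 (0.0571 and 0.0834), and Snora44 without control female 2 (0.0849) or control male 3 (0.0553). Snora16a was also lost without control female 2, control male 1 or 3, cKO female 3, or cKO male 1 or 3 (0.0517 to 0.147). The background and cell type markers given above differ in this contrast too, and their part was not tested.

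Gm22357 and its host Gas5 did not follow each other in cKO males. The snoRNA was 439, 191 and 409 deposited FPKM in cKO males 1 to 3, where Gas5 was 66.1, 163 and 68.7. In control males the snoRNA was 273, 362 and 230 FPKM, and in females it ran from 57.2 to 136 FPKM. The 2 cKO males with the lowest male Gas5 levels thus had the highest Gm22357 levels of the 12 libraries. This pair was singled out after its values were seen, and the difference was not tested.

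**Figure D5:**
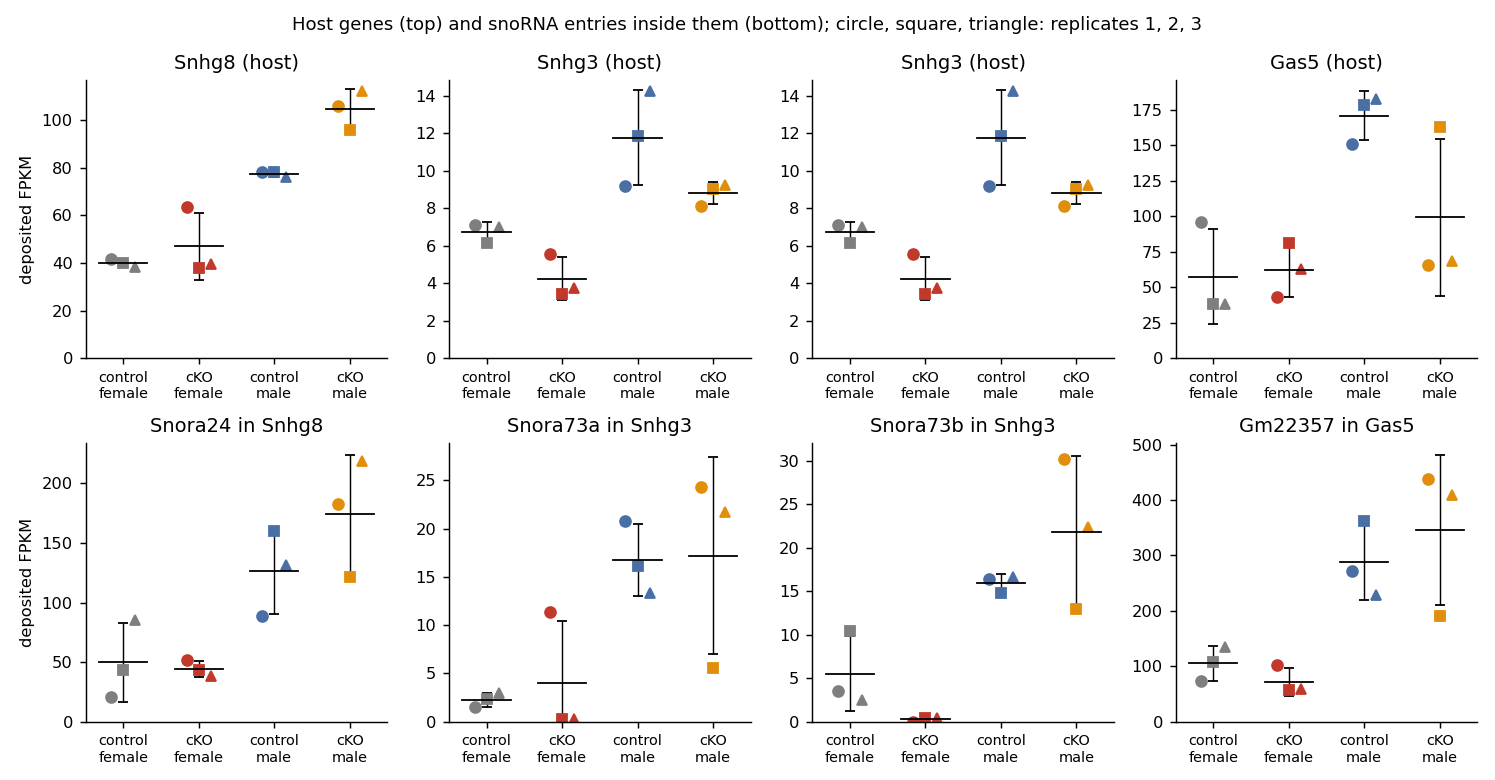
Deposited FPKM of 3 host genes (top row, Snhg3 drawn above each of its entries) and of snoRNA entries inside them (bottom row), by library (points), with group mean (line) and SD (bar, n = 3). Gm22357 is highest in cKO males 1 and 3 (439 and 409 FPKM), where Gas5 is 66.1 and 68.7.

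Other genes of the same pathway were taken from lists made for this description. Of 13 noncoding hosts outside the 9, 7 could be tested, and 0 were called between cKO and control in females, in males or for the mean by limma. Of all genes, 0.0731, 0.00664 and 0.0332% were called, so 0 in a short list says little about it. At an unadjusted p under 0.05 these counts were 2, 0 and 3, against 29.3, 2.32 and 20.3% of all genes. Both sets of shares also apply to the lists that follow. Snhg5, host of Snord50 copies, was 2.90 ± 0.48 subtracted FPKM (control) and 5.37 ± 1.45 (cKO) in females, and 3.50 ± 0.79 and 3.83 ± 0.19 in males (SD, n = 3 each; log2 difference in females 0.77, adjusted p = 0.114). Snhg4 was 9.23 ± 1.62 FPKM in control and 14.2 ± 2.55 in cKO females (0.60, adjusted p = 0.114), and 11.2 ± 0.96 and 10.8 ± 1.26 in control and cKO males. Snhg15 had log2 differences of 0.09 in females and 0.25 in males. Between the control groups 1 of the 7 was called, against 6.56% of all genes higher and 11.7% in either direction. This was Zfas1, higher in males (0.52, limma adjusted p = 0.0315). Its call held in 13 of 22 alternatives and was lost when any 1 of the control libraries was left out (0.0686 to 0.119).

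All 46 protein-coding hosts were tested, and 0 were called in females, in males or for the mean of the sexes, with 8, 0 and 6 at an unadjusted p under 0.05 (limma). Taf1d, a subunit of the RNA polymerase I factor SL1, was 3.91 ± 0.41 FPKM in control and 5.33 ± 1.01 in cKO females (SD, n = 3 each), a log2 difference of 0.39 with an adjusted p of 0.114. Prrc2a had a log2 difference of -0.55 in females (adjusted p = 0.114), and Tpt1 one of -0.28 (0.152). Between control males and females, 24 of the 46 were called higher and 1 lower (6.56% of all genes higher, 11.7% in either direction), with a median of 0.62 against -0.07 over all genes. One of them is Eef1b2, a translation elongation factor subunit (0.66, adjusted p = 0.00496), whose call was lost on deposited FPKM (0.173), on summed FPKM (0.117) and with no subtraction (0.137). The background and the cell type markers above differ in this contrast too, and their part was not tested.

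Of 19 proteins of snoRNA particles and their assembly, 17 were tested and 0 were called between cKO and control in females, males or the mean (3, 0 and 2 at an unadjusted p under 0.05, limma). Fbl, the methyltransferase of box C/D particles, was 1.72 ± 0.07 FPKM in control and 3.48 ± 1.65 in cKO females (log2 difference 0.75, adjusted p = 0.121). Naf1, an H/ACA assembly factor, had log2 differences of -0.25 in females and -0.27 in males. Snu13, a box C/D core protein, had -0.46 and -0.03, and Ruvbl1, an assembly ATPase, 0.08 and 0.10. In the control comparison 1 was called higher and 1 lower, against 11.7% of all genes. Of 15 tested genes of nonsense-mediated decay and the exon junction complex, 0 were called in the same 3 comparisons (1, 0 and 0 unadjusted). Upf2, Smg9 and Smg5 had log2 differences in females of 0.19, -0.63 and -0.16, with adjusted p of 0.266, 0.189 and 0.204. Between the controls 1 was called higher and 2 lower, against 6.56% of all genes higher and 11.7% in either direction. The 1 higher in males was the exon junction gene Magoh (0.60, limma adjusted p = 0.0221). Its call held in 13 of 23 alternatives. It was lost without control female 1, 2 or 3 or control male 2 or 3 (0.0549 to 0.0888).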

How the data were processed

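Total RNA of 12 hippocampal libraries came from a miRVANA isolation and went into ScriptSeq Complete Gold libraries, which deplete ribosomal RNA, per the labels' protocols. Per the submitters' processing notes, the authors used HISAT2 2.0.4, StringTie and the genome build GRCm38.p6. Strand use, trimming and annotation release are not given in the sources used here. Deposited tables give FPKM and coverage (mean read depth per base, a signal) for 137862 transcripts, and no counts. From the deposited values, bases per gene (coverage times length) were divided by the exon union of GENCODE M21 (54495 of 54532 genes matched) and put on the FPKM scale. The median of 1459 receptor genes was subtracted, values below 0 were set to 0, and libraries were scaled by median ratios over protein-coding genes averaging 5 or more. The filter kept genes averaging 1 or more that also reached 1 in 3 libraries (15055; all 9 hosts passed). Limma 3.58.1 (R 4.3.3; trend, robust, 4 group means, Benjamini-Hochberg, threshold 0.05) was fitted on log2(value + 0.5), which understates changes of low genes, and was tested on simulated data. Named genes were the hosts, Atrx, the 5 genes most like Snhg8, up to 4 genes a list by smallest p for the mean of the sexes, and the best-covered snoRNAs; those also named after a call in the control comparison were chosen after their values were seen. Genes were counted as snoRNAs by annotated biotype, not by name as planned. The hosts, lists and alternatives were chosen with earlier results of these data known. Nothing states that each library is 1 mouse or which libraries form a pair, so p-values measure the spread between these libraries. No 2 libraries were duplicates (highest correlation 0.989).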

Additional observations from a re-analysis of the deposited data

How the results depend on the processing

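Depth is known only as mapped bases, so no counting interval can be given, and levels near the background of cKO females 2 and 3 (1.97 and 2.25 FPKM) are not resolved there. Alternatives were deposited FPKM, scaling with no subtraction, another silent gene set, quantile normalization, constants of 0.1 and 2, no filter or a mean of at least 5, limma with no trend or robust step, a replicate block, summed transcript FPKM less the background, each library left out, and cKO females 2 and 3 left out. The scaling with no subtraction used deposited FPKM and median ratios over all genes detected in every library, so it changed more than the subtraction. For snoRNAs and listed genes the alternatives were chosen after seeing the data. The log2 ratio of deposited Atrx, cKO to control, was -0.76 in females (-0.82 to -0.68 with each library left out) and -0.33 in males (-0.37 to -0.26).

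The Snhg8 log2 difference in females was 0.19 on deposited FPKM, 0.39 on summed transcript FPKM and -0.53 with no subtraction. In males it was 0.18 with no subtraction. With each library left out it was 0.66 to 0.72 in females and 0.37 to 0.49 in males. Between the controls Snhg8 was 0.93 and became 1.60 with no subtraction (adjusted p = 0.0794), and was 0.89 to 0.96 with each library left out.

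The count of called hosts other than Snhg8 was 0 to 2 in females, 0 to 2 for the mean and 0 to 1 for the difference with each library left out (Snhg1 and Snhg3 without cKO female 1, Snhg3 alone for the difference, in fits that called 38.6, 29.6 and 19.3% of all genes). Between the controls the count, with Snhg8 included, was 1 to 4 of 9 with each library left out, in fits that called 3.56 to 18.6% of all genes. It was 1 with no subtraction and 1 with no filter, beside 0.264 and 1.4% of all genes. The count of called snoRNAs in females was 0 on deposited FPKM, with no subtraction, with a constant of 2, with no trend or robust step, on summed FPKM and without cKO females 2 and 3. With each library left out it was 0 to 14, and 0 to 9 for the mean and 0 to 8 for the difference, the highest each time without cKO female 1. It was 1 for the mean with a constant of 0.1. Between the controls it was 0 to 6 with each library left out, in fits that called 3.56 to 18.6% of all genes. It was 0 with no subtraction and 0 with no filter, beside 0.264 and 1.4% of all genes.

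These unpassed differences changed sign. With no subtraction they were, in females, -0.41 for Snhg1, -0.39 for Snhg20 and -0.51 for Gas5, and between the controls 0.05 for Snhg11 and 0.31 for Snhg14. Snhg6 in females was 0.16 on deposited FPKM, 0.12 on summed FPKM and 0.76 without cKO females 2 and 3, where Snhg12 was 0.15 and Gas5 -0.14. Snhg14 in females was 0.07 on summed FPKM. Snhg20 in males was 0.05 on deposited and 0.02 on summed FPKM, and between the controls -0.19 and -0.03. With each library left out, the ranges that crossed 0 were, in females, -0.59 to 0.22 for Snhg6, -1.15 to 0.03 for Snhg12 and -0.17 to 0.16 for Snhg14, in males -0.26 to 0.33 for Snhg11 and -0.30 to 0.11 for Snhg20, and between the controls -0.16 to 0.24 for Snhg20. The cause was not tested.

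Deviations of same-numbered control and cKO libraries of a sex correlated at -0.30 to 0.38 (6 pairs). Those of other-numbered libraries correlated at -0.51 to 0.48 (12 pairs). With 3 libraries per group, these values cannot show whether replicate numbers pair the libraries. With a replicate block within each sex, called hosts other than Snhg8 stayed at 0 in the 4 cKO comparisons, limma called no gene in females, in males, for the mean or for the difference (4251, 355, 3010 and 1062 at an unadjusted p under 0.05), and called snoRNAs in females fell from 1 to 0. A block within a sex cannot pair the comparison of the sexes.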
